A study of Sus scrofa with 6 samples.

Results

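Translation factors and aminoacyl-tRNA synthetases were examined in the cerebral cortex of the pig embryo at embryonic day 60 (E60), when the cortical surface is smooth, and at embryonic day 80 (E80), when the primary folds have formed. The members were chosen by a rule on gene symbols, with earlier results of these data known. They are the probe sets of the array that carry exactly 1 symbol and whose symbol begins with EIF or EEF, or is ETF1, GSPT1 or GSPT2, or has the form of a synthetase name such as AARS, VARS2 or EPRS. EIF1AY was left out. This gave 60 genes, read by 92 probe sets, of 6765 genes with a symbol of their own and 23999 probe sets tested. Of the 60 genes, 33 were grouped as initiation factors, 5 as elongation factors, 13 as cytosolic synthetases and 6 as mitochondrial synthetases. The last 3 are the eIF2 kinase EIF2AK2, the eIF4E-binding protein EIF4EBP2 and the elongation factor methyltransferase EEF1AKMT1. EIF4A3, EIF5A, EIF6 and EEF1E1 are counted in these groups by their names, and the functions of EIF4A3, EIF5A and EEF1E1 are given below. The release factors ETF1, GSPT1 and GSPT2, the elongation factors EEF2 and EEF1A2, and EIF4EBP1 were not analysed here. For a gene with several probe sets the brightest, by mean signal over the 6 arrays, stands for the gene.

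Cortical RNA was hybridised to the Affymetrix Pig Genome Array, 1 array for each embryo, with arrays 1, 2 and 3 from E60 and arrays 4, 5 and 6 from E80. No treatment and no genotype is named, and the labels give neither breed nor sex. The design text speaks of litter mates without tying an array to a litter, and if each day came from a litter of its own, litter and day cannot be told apart. The values are MAS5 signals, a linear brightness per probe set, which the authors scaled to a common level on every array. Differences are on the log2 scale, with the mean of E60 subtracted from that of E80, and are positive where E80 was higher.

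In translation, initiation factors bring the initiator tRNA and the small ribosomal subunit to the start codon, elongation factors deliver aminoacyl-tRNAs and move the ribosome along the message, and release factors end the chain. The synthetases charge each tRNA with its amino acid, in separate sets of enzymes for the cytosol and for mitochondria. Initiation is the step at which the cell mostly regulates the rate, through phosphorylation of eIF2, which blocks its guanine nucleotide exchange factor eIF2B, and through the eIF4E-binding proteins, which keep the cap-binding protein eIF4E from the scaffold eIF4G and are themselves switched off by the kinase mTORC1. In neurons, local translation in dendrites and axons is part of synapse formation and plasticity.

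The tissue is a mixture of cells, and the signals of cell type markers differed between the days. Of 7 measured astrocyte markers 4 had risen, and their summed signal was 3676 to 4016 at E60 and 6055 to 9096 at E80. Of 4 measured markers of radial glia and dividing cells 2 had fallen, with sums of 5498 to 5638 at E60 and 4387 to 4964 at E80. Of 6 neuronal markers 1 had risen, with sums of 12309 to 13412 and 14896 to 15493. Array 6 stood apart through the choroid plexus markers, whose sum was 5463 there and 88.6 to 196 on the other arrays, although none of the 4 measured markers passed the test. The oligodendrocyte markers summed to 727 on array 6 and to 155 to 309 on the others, and the microglial markers to 317 and to 78.8 to 119. In bulk tissue fewer cells of a type and less RNA per cell cannot be told apart, and the part of these cell types in the results below was not tested.

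No translation factor or synthetase gene passed the test on its brightest probe set. In limma, with p-values adjusted over all 23999 probe sets, 0 of the 60 genes had risen and 0 had fallen at an adjusted p under 0.05, against 0.933% of all probe sets that rose and 1.01% that fell. Of the 6765 genes, taken likewise by their brightest probe set, 2.54% passed, 1.49% up and 1.05% down. At an unadjusted p under 0.05 there were 10 genes (16.7%), 6 higher and 4 lower at E80, against 18.0% of all probe sets (7.12% higher, 10.8% lower) and 20.8% of the 6765 genes (10.1% higher, 10.6% lower). In 16 genes (26.7%) all arrays of one day lay above all arrays of the other, 9 of them higher and 7 lower at E80, against 23.6% of all probe sets (9.25% higher, 14.4% lower) and 27.5% of the 6765 genes (12.8% higher, 14.7% lower). These shares are near the background. None of the 60 reached the 3-fold threshold of the study, taken here together with no overlap between the days, which 1.21% of all probe sets and 0.754% of the 6765 genes did.

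On the brightest probe set of each gene the differences were small and they were measured with fair precision. The median log2 difference of the 60 genes was 0.02, against -0.05 for all probe sets and -0.0002 for the 6765 genes by their brightest probe set. Of the 60 genes, 59 differed by less than 1.5-fold between the days, the exception being the dim NARS2. The same held for 5798 of the 6765 genes and for 19134 of all 23999 probe sets. The standard error had a median of 0.11 for the members, 0.17 for the 6765 genes taken likewise and 0.23 for all probe sets. For 44 of the 60 genes (73.3%) the 95% interval of the difference lay within 1.5-fold in either direction, and this was so for 43.7% of all genes with a symbol. Of all 92 member probe sets, 85 differed by less than 1.5-fold, and the interval lay within it for 63.0%, against 29.0% of all probe sets. Probe sets of EIF4EBP2, EPRS, EIF4E2 and EIF3D other than the brightest differed by more and are described below. The mean signal of 55 of the 60 exceeded 61.6, which is the median over the whole array, the others being EIF2D and the mitochondrial synthetases EARS2, NARS2, VARS2 and WARS2. The direction of so small a shift depends on the scaling. As deposited, 33 genes were higher and 27 lower at E80. With the medians of the arrays set to a common value, which moved the median of all probe sets to 0.06, the numbers were 42 and 18, and after quantile normalization they were 27 and 33.

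**Figure D1:**
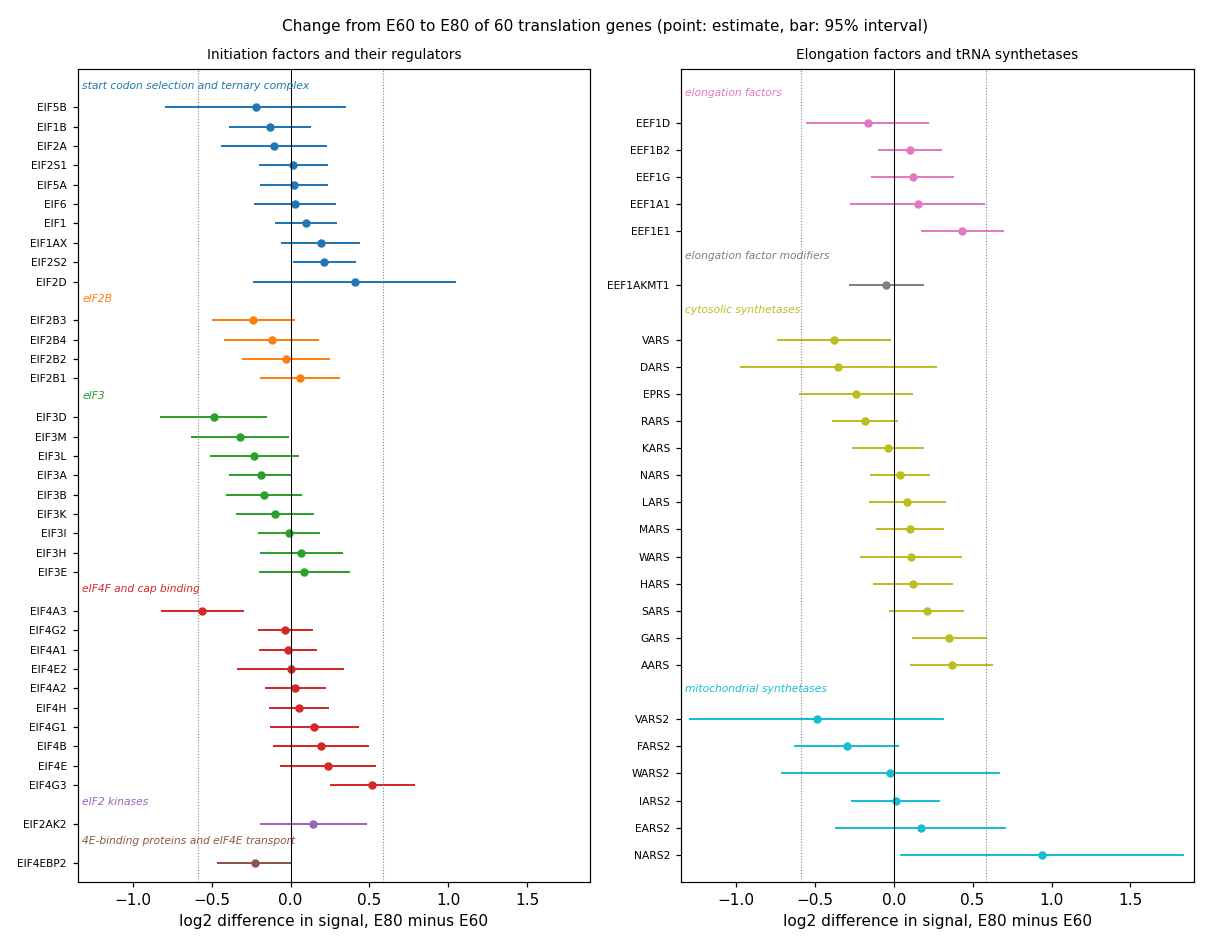
Log2 difference in MAS5 signal, E80 minus E60 (horizontal axis), of the 60 genes, grouped and coloured by role, with the 95% interval from limma as a bar; dotted lines mark a 1.5-fold difference in either direction. Most points lie close to 0, EIF4A3 and EIF3D lie farthest to the left among the initiation factors, EIF4G3 lies farthest to the right among them, and the widest intervals belong to the dim mitochondrial synthetases.

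Of the 10 genes of the ternary complex and of start codon selection 1 had an unadjusted p under 0.05. The eIF2 complex carries the initiator tRNA, and its beta subunit EIF2S2 had signals of 624, 573 and 583 on the arrays of E60 and 698, 654 and 712 on those of E80. All arrays of E80 lay above those of E60, by a log2 difference of 0.21 (standard error 0.08, adjusted p = 0.235). The alpha subunit EIF2S1, which carries the regulated phosphorylation site, had a mean signal of 452 ± 22.8 (SD, n = 3) at E60 and 458 ± 30.3 (SD, n = 3) at E80, and the days overlapped. EIF1, which keeps the scanning ribosome open until the start codon is met, had a log2 difference of 0.10, and its close relative EIF1B one of -0.13. EIF1AX had one of 0.19, the GTPase EIF5B, which joins the subunits, one of -0.22, and EIF5A, which helps the ribosome over difficult peptide bonds, one of 0.02. EIF2D, an alternative tRNA delivery factor, had the largest value of the group at 0.41 (standard error 0.28, adjusted p = 0.494), on a dim probe set with signals of 18.2, 31.4 and 27.6 at E60 and 33.9, 35.7 and 30.3 at E80. Its size rested on array 1, without which it was 0.17, under the 0.25 of EIF2S2 in that setting, and with 32 added to each signal it was 0.18.

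Of the exchange factor eIF2B, 4 of the subunits were measured, 3 with a lower and 1 with a higher mean at E80 (2 and 2 after median centring). EIF2B3, the gamma subunit, had signals of 222, 224 and 263 at E60 and 192, 205 and 204 at E80. The days did not overlap, and the log2 difference of -0.24 (standard error 0.11, adjusted p = 0.313) did not pass. EIF2B4 (-0.12), EIF2B2 (-0.03) and EIF2B1 (0.06) overlapped. Of the kinases that phosphorylate eIF2 only EIF2AK2, known as PKR and activated by double-stranded RNA, was measured, with signals of 210, 224 and 160 at E60 and 227, 221 and 202 at E80 (log2 difference 0.14, adjusted p = 0.659).

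The eIF3 complex is the large scaffold that holds the small subunit, the initiator tRNA and the cap complex together, and 7 of its 9 measured subunits had a lower mean at E80. The median log2 difference of the 9 was -0.17, and it was -0.05 with 5 subunits lower after median centring and -0.22 with all 9 lower after quantile normalization. None of the 9 passed the test, and 2 (22.2%) were under an unadjusted p of 0.05, against 20.8% of the 6765 genes. A lower mean at E80 was found for 3386 of the 6765 genes and 13358 of all 23999 probe sets. EIF3D, the subunit that can itself bind the cap, had signals of 531, 613 and 762 at E60 and 399, 485 and 466 at E80. Every array of E80 was below every array of E60, at a log2 difference of -0.49 (standard error 0.14, adjusted p = 0.129). Its other probe set is dim, with a mean signal of 22.7 ± 5.74 (SD, n = 3) at E60, and was lower again at a log2 difference of -1.07 (standard error 0.39, adjusted p = 0.196), without overlap, which was -0.34 with 32 added to each signal.

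EIF3M was lower on both of its probe sets, by a log2 difference of -0.32 (standard error 0.13, adjusted p = 0.259) on the brighter, where array 5 overlapped the E60 arrays, and of -0.28 (standard error 0.11, adjusted p = 0.209) on the other, where the days were apart. EIF3A, the largest subunit, had signals of 651, 630 and 605 at E60 and 530, 575 and 550 at E80, which did not overlap, and a log2 difference of -0.19 (standard error 0.08, adjusted p = 0.283). EIF3L (-0.23), EIF3B (-0.17) and EIF3K (-0.10) were lower with overlap. EIF3I (-0.01), EIF3H (0.07) and EIF3E (0.09) were the nearest to 0.

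The eIF4 group, which binds the cap and unwinds the leader, held the members with the smallest p-values, in opposite directions. EIF4A3, a DEAD-box helicase of the exon junction complex, which marks spliced messages and acts in their decay, had signals of 876, 824 and 751 at E60 and 499, 629 and 540 at E80. The days were well apart, and the log2 difference of -0.56 (standard error 0.11) had an adjusted p of 0.0501, just outside the threshold. Over the alternative settings this p ranged from 0.0198 to 0.195. EIF4G3, a scaffold of the cap complex, had signals of 571, 576 and 545 at E60 and 882, 876 and 683 at E80. It was higher on every array of E80, with array 6 the nearest to E60, at a log2 difference of 0.52 (standard error 0.12, adjusted p = 0.0644, with 0.0323 to 0.216 over the settings).

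The near relatives of these genes were set beside them, as a description, since EIF4A3 and EIF4G3 were singled out for their small p. The initiation helicase EIF4A1 had a mean signal of 1193 ± 45.3 (SD, n = 3) at E60 and 1180 ± 39.0 (SD, n = 3) at E80, a log2 difference of -0.02 with a 95% interval of -0.20 to 0.16. EIF4A2, its brain-enriched counterpart, had one of 0.03 (95% interval -0.16 to 0.22). Within each array the log2 ratio of EIF4A3 to EIF4A1, which a constant factor per array cannot move, was lower on all 3 arrays of E80 than on all 3 of E60, by 0.54 (standard error 0.13). For EIF4A3 against EIF4A2 the difference was -0.59 (standard error 0.12), again without overlap. EIF4G2, a relative of the scaffold that lacks the eIF4E site, had a log2 difference of -0.03 (95% interval -0.20 to 0.13), and EIF4G1 one of 0.15 (95% interval -0.13 to 0.43). EIF4G3 exceeded EIF4G2 in its change by 0.55 (standard error 0.13), without overlap, while against EIF4G1 the difference of 0.37 (standard error 0.22) overlapped. None of the 9 pairs of relatives compared could pass. The smallest two-sided p that an exact permutation test of 3 against 3 arrays can give is 0.1. The pairs without overlap had this p (adjusted over the 9 pairs, 0.225). The test could therefore show neither a difference in change between relatives nor its absence. The cap-binding protein EIF4E had signals of 248, 246 and 196 at E60 and 252, 298 and 261 at E80. The arrays of E80 lay just above, at a log2 difference of 0.24 (standard error 0.13, adjusted p = 0.387). EIF4B (0.19) and EIF4H (0.05), which assist the helicase, overlapped.

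**Figure D2:**
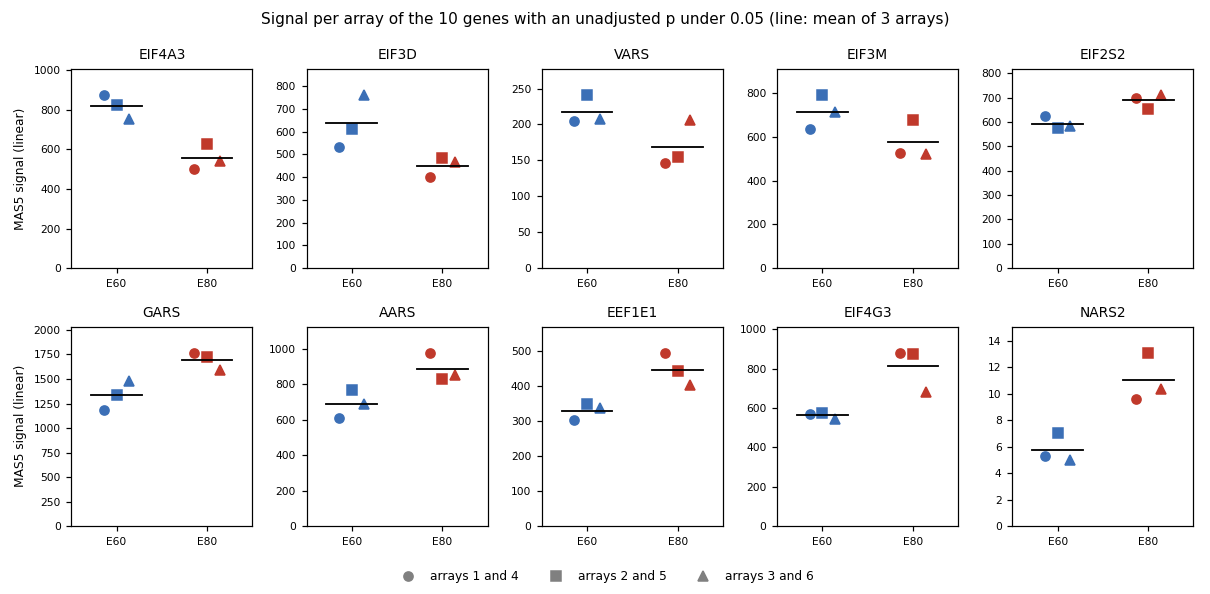
MAS5 signal (linear vertical axis from 0) on each array for the 10 genes with an unadjusted p under 0.05, in the order of their log2 difference; symbols are single embryos, E60 in blue and E80 in red, and lines are means of 3. In 8 of the 10 panels the days do not overlap; VARS (array 6) and EIF3M (array 5) are the exceptions.

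EIF4EBP2, the form of the eIF4E-binding protein that prevails in brain, was the member gene with a call, on 1 of its 5 probe sets. Probe set 3, counted from the brightest, had signals of 430, 429 and 483 at E60 and 303, 327 and 298 at E80. It fell, by a log2 difference of -0.53 (standard error 0.10, adjusted p = 0.0379), and it was the only one of the 92 member probe sets past the test, against 1.95% of all probe sets. This call was lost without any of the 6 arrays in turn, at adjusted p of 0.0527 to 0.145, while the difference was -0.48 to -0.57. It was also lost after median centring (-0.42, adjusted p = 0.1002) and without the intensity trend of the variance (adjusted p = 0.169). Without array 1, 2 or 4, 0 of all 23999 probe sets rose and 1 fell, and without the trend 0 rose and 0 fell. The losses in these settings are therefore not particular to this probe set. The call was lost likewise where many others remained. Without array 3, 5 or 6, 124, 189 and 103 of all probe sets fell, and after median centring 108 did. In the other direction, array weights gave more calls over the whole array. With them 649 of all 23999 probe sets fell and 520 rose, against 243 and 224 in the main fit. Of the 92 member probe sets 5 then fell and 1 rose, among them probe sets 2, 3 and 4 of EIF4EBP2 (adjusted p = 0.0455, 0.0218 and 0.0418) and probe set 3 of EPRS (adjusted p = 0.0331). Probe set 2 had signals of 1055, 1216 and 1305 at E60 and 575, 699 and 958 at E80, a log2 difference of -0.71 (standard error 0.18, adjusted p = 0.0884), and without array 6 it passed (-0.90, adjusted p = 0.0407). Probe set 4 had signals of 221, 260 and 351 at E60 and 148, 183 and 149 at E80, a log2 difference of -0.77 (standard error 0.18, adjusted p = 0.0729). On probe sets 2, 3 and 4 no array of E80 reached an array of E60. The brightest probe set showed less, with signals of 1188, 1099 and 1247 at E60 and 973, 928 and 1125 at E80 (log2 difference -0.23, standard error 0.10, adjusted p = 0.286) and an overlap through array 6. Probe set 5 is dim, with a mean signal of 33.9 ± 11.6 (SD, n = 3) at E60 and 36.9 ± 16.8 (SD, n = 3) at E80 and a difference of 0.08 (standard error 0.37). Probe sets of 1 gene share the same RNA and are not replicates, and which transcript ends they read is not given in the sources used here.

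Probe sets of other genes also differed among themselves. Of the 23 genes with several probe sets, 10 had the same direction on each of them and 13 had both. In EIF1AX, EIF2B1, EIF4B, EIF4G1, EIF4H, EIF5A, HARS and SARS the brightest probe set was higher and the other lower at E80. The other probe set overlapped in each, at -0.01 for EIF1AX, -0.26 for EIF2B1, -0.02 for EIF4B and -0.13 for EIF4G1. In EIF2A and EEF1AKMT1 the brightest was lower and the other higher. EIF4E2, a cap-binding protein known from translational repression, had a log2 difference of 0.00 on its brightest probe set, of 0.21 on the next and of -0.61 (standard error 0.18, adjusted p = 0.131) on probe set 3, where signals of 96.6, 99.2 and 96.5 at E60 stood against 50.6, 69.2 and 74.8 at E80. EPRS was lower on all 3 of its probe sets, by -0.24, -0.18 and -0.73 (standard error 0.19, adjusted p = 0.0919 for the last), and the days were apart on probe set 3 alone. EEF1A1, the main carrier of aminoacyl-tRNA, had differences of 0.15, -0.05 and -0.26, each with overlap, and a further probe set of it that serves as an array control was not used.

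**Figure D3:**
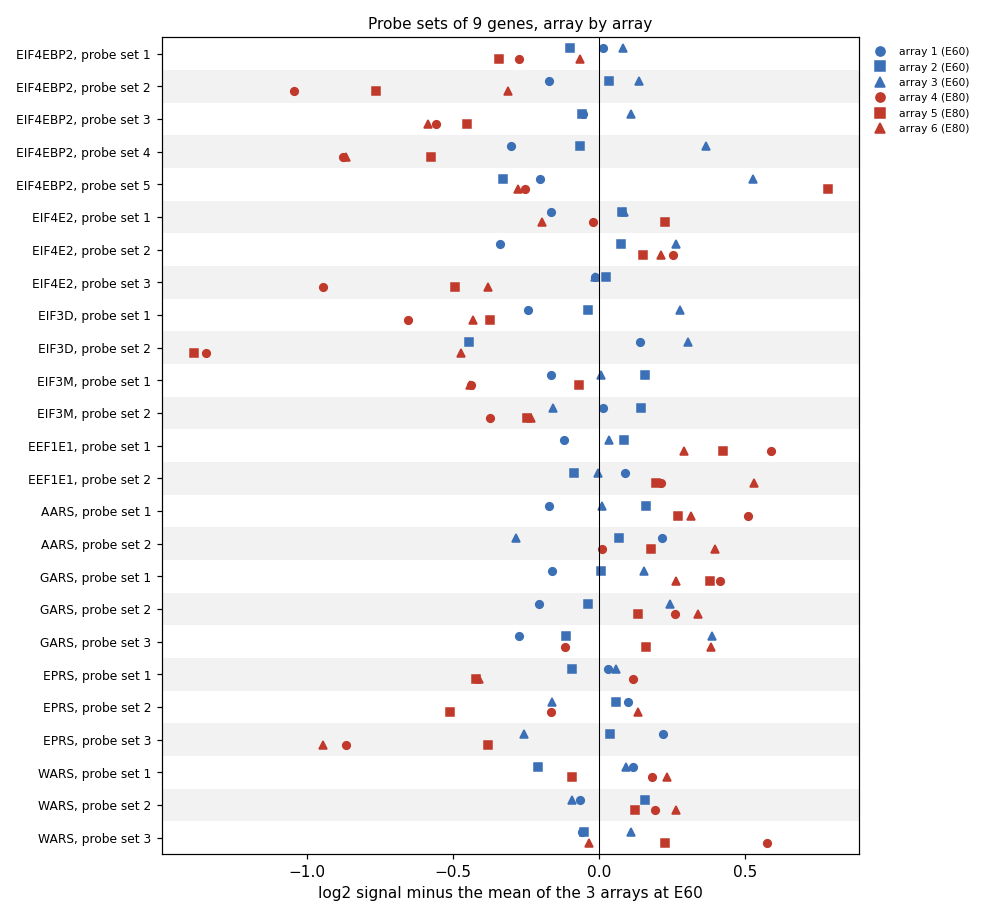
Log2 signal minus the mean of the 3 E60 arrays (horizontal axis) for each probe set of 9 genes with several probe sets, numbered from the brightest; symbols are single arrays, E60 in blue and E80 in red. The red symbols of EIF4EBP2 lie to the left of the blue ones on probe sets 2, 3 and 4, those of EEF1E1 lie to the right on both probe sets, and those of EPRS and EIF4E2 are apart from the blue ones on probe set 3 only.

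Among the 5 genes grouped as elongation factors, EEF1E1 alone had days that did not overlap. EEF1E1, also named AIMP3, is an auxiliary protein of the complex into which several synthetases assemble. It had signals of 303, 349 and 336 at E60 and 495, 441 and 402 at E80, a log2 difference of 0.44 (standard error 0.11, adjusted p = 0.0904). Probe set 2 was also higher on all arrays of E80, by 0.31 (standard error 0.13, adjusted p = 0.258). EEF1B2 and EEF1G, subunits of the exchange factor of EEF1A, had log2 differences of 0.11 and 0.12, EEF1D, a further subunit, one of -0.17, and all of them overlapped. The signal of EEF1D was 352 on array 4, against 516 to 549 on the other arrays. The lysine methyltransferase EEF1AKMT1 had a difference of -0.05 (95% interval -0.28 to 0.18), which was 0.07 after median centring.

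Of the 13 cytosolic synthetases 8 had a higher and 5 a lower mean at E80 (9 and 4 after median centring, 7 and 6 after quantile normalization), with a median log2 difference of 0.09. In 5 of them (38.5%) the days did not overlap, against 27.5% of all genes. GARS, which charges glycine tRNA, had signals of 1188, 1333 and 1478 at E60 and 1769, 1728 and 1596 at E80. It was higher on every array of E80, at a log2 difference of 0.35 (standard error 0.10, adjusted p = 0.117), and its other probe sets gave 0.25 and 0.14, with overlap. AARS, the alanine enzyme, had signals of 609, 766 and 690 at E60 and 978, 827 and 854 at E80, also without overlap, at 0.37 (standard error 0.11, adjusted p = 0.139). SARS, the serine enzyme, had a difference of 0.21 (standard error 0.10, adjusted p = 0.324), and MARS, the methionine enzyme, one of 0.10 (standard error 0.09, adjusted p = 0.599), both apart by a narrow margin. The other probe set of SARS went the other way, at -0.14 with overlap.

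The lower synthetases were VARS, DARS, EPRS, RARS and KARS. VARS, the valine enzyme, had signals of 205, 242 and 207 at E60 and 146, 155 and 207 at E80, so that array 6 reached the level of E60 (log2 difference -0.38, standard error 0.15, adjusted p = 0.246). RARS, the arginine enzyme, was lower on every array of E80, at 615, 648 and 603 against 700, 758 and 660, a log2 difference of -0.18 (standard error 0.09, adjusted p = 0.333). RARS, EPRS, DARS, KARS, LARS and MARS belong with EEF1E1 to the multi-synthetase complex. Their differences ran from -0.35 for DARS to 0.10 for MARS, while that of EEF1E1 was 0.44. NARS (0.04), LARS (0.09), WARS (0.11) and HARS (0.12) overlapped.

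Of the 6 mitochondrial synthetases 4 were dim, and the values of the group were less precise, with a median standard error of 0.27 against 0.10 for the cytosolic enzymes. NARS2 had signals of 5.26, 7.05 and 4.96 at E60 and 9.61, 13.1 and 10.3 at E80, apart on all arrays at a log2 difference of 0.94 (standard error 0.39, adjusted p = 0.255). At this level, far under the array median, the size of the difference is weakly determined, and with 32 added to each signal it was 0.19. Its cytosolic partner NARS had signals of 675, 667 and 646 at E60 and 701, 691 and 655 at E80, a log2 difference of 0.04. FARS2, the enzyme for phenylalanine, had signals of 178, 240 and 188 at E60 and 173, 150 and 165 at E80, just apart, at -0.30 (standard error 0.14, adjusted p = 0.319). VARS2 (-0.49, standard error 0.35), WARS2 (-0.02), IARS2 (0.01) and EARS2 (0.17) overlapped. The pairs VARS2 with VARS and WARS2 with WARS did not differ in their change beyond the spread between arrays (-0.11, standard error 0.34, and -0.13, standard error 0.46).

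Neighbouring genes of the pathway that the symbol rule does not reach were taken from written lists. Of 15 measured genes among assembly proteins of the synthetase complex, recycling and other accessory factors none passed the test. Under an unadjusted p of 0.05 were 2 of them (13.3%, against 20.8% of the 6765 genes), both lower at E80. They were IMPACT, which restrains the eIF2 kinase GCN2 in neurons (log2 difference -0.40, adjusted p = 0.169), and PAIP1, a partner of the poly(A)-binding protein (-0.27, adjusted p = 0.204). The synthetase subunits FARSA and FARSB had differences of 0.15 and 0.02 and the scaffold proteins AIMP1 and AIMP2 -0.14 and 0.02. None of 10 mitochondrial translation factors passed, with MRRF, the recycling factor, at 0.40 (adjusted p = 0.276) and GATB at 0.33 (adjusted p = 0.318). None of 10 genes of mTORC1 and cap regulation passed either. The mTORC1 inhibitors TSC1 and TSC2 had the smallest p-values of that list and did not overlap. TSC2 had signals of 179, 192 and 214 at E60 and 165, 143 and 163 at E80 (-0.31, adjusted p = 0.229), and TSC1 ones of 49.9, 49.6 and 30.2 at E60 and 30.2, 21.6 and 19.6 at E80 (-0.85, adjusted p = 0.185), where array 3 and array 4 were nearly equal. With 32 added to each signal the value for TSC1 was -0.42.

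The list that did hold calls was that of the integrated stress response, the programme by which phosphorylated eIF2 and the transcription factor ATF4 raise amino acid synthesis, transport and tRNA charging. Of its 12 measured genes 2 had risen, against 1.49% of the 6765 genes, and 9 had a higher mean at E80, as did 3379 of the 6765 genes. In 6 of the 12 all arrays of E80 lay above those of E60, against 12.8% of the 6765 genes. The median log2 difference of the 12 was 0.27, with 0.25 after quantile normalization and 0.38 after median centring. This list, too, was written with results of these data known. PSAT1, an enzyme of serine synthesis, had signals of 829, 780 and 777 at E60 and 1277, 1145 and 1317 at E80 and rose by 0.65 (standard error 0.09, adjusted p = 0.0176). ASNS, the asparagine synthetase, had signals of 284, 305 and 325 at E60 and 523, 435 and 471 at E80 and rose by 0.64 (standard error 0.11, adjusted p = 0.0291). Neither passed without array 1, 2 or 4, at adjusted p of 0.0757 to 0.129, nor without the intensity trend of the variance (0.141 and 0.152), and ASNS did not pass without array 6 (0.0713), where PSAT1 did (0.0498). Without array 1, 2 or 4, no more than 1 of all 23999 probe sets passed, and without the trend 0 did, so those losses are not particular to PSAT1 and ASNS.

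PHGDH, the first enzyme of serine synthesis, had a log2 difference of 0.59 (standard error 0.17, adjusted p = 0.118), and CEBPB, a partner of ATF4, one of 1.47 (standard error 0.33, adjusted p = 0.0682) from low signals of 12.5 to 24.7 at E60 to 43.6 to 70.6 at E80. The value for CEBPB was 0.73 with 32 added to each signal, and its adjusted p ran from 0.0427 to 0.190 over the settings. ATF4 itself had signals of 843, 948 and 962 at E60 and 1191, 979 and 1227 at E80. It was higher on all arrays of E80, although array 5 was close to E60, at a log2 difference of 0.30 (standard error 0.11, adjusted p = 0.206). Not all genes of the list had higher signals. CEBPG had a log2 difference of -0.74 (adjusted p = 0.203), PPP1R15A, which reverses the phosphorylation of eIF2, one of -0.25 and ATF3 one of -0.49, and all of them overlapped. The overlap of CEBPG came from array 5 alone, whose signal was 112 while the remaining E80 embryos had 55.6 and 54.8. When array 5 was left out, 2 genes of the list passed the test as risen and 1 as fallen. The astrocyte markers were higher on the same arrays, and their part in the rise of PSAT1 and ASNS was not tested.

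**Figure D4:**
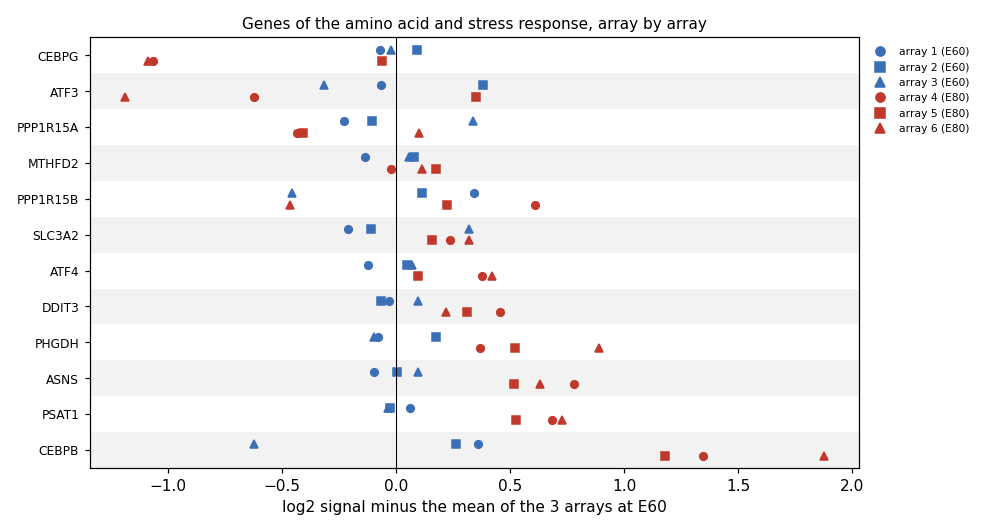
Log2 signal minus the mean of the 3 E60 arrays (horizontal axis) for the 12 measured genes of the integrated stress response, ordered by their mean difference; symbols are single arrays, E60 in blue and E80 in red. For ATF4, DDIT3, PHGDH, ASNS, PSAT1 and CEBPB all red symbols lie to the right of the blue ones, while those of CEBPG, ATF3 and PPP1R15A spread to the left.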

How the data were processed

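RNA of the cerebral cortex of 6 pig embryos, 3 per day, was measured. The intensity deposited by the authors is the linear MAS5 signal, computed from matching and mismatching probes and scaled per array (the mean of the middle 96% of signals was 150.02 on each). A MAS5 version is not given in the sources used here. Present calls are known to the study as totals per array and were not used, and its filter was a consistent direction on the 3 arrays and a fold of 3. Groups follow the day in the labels.

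The 124 control probe sets were left out, among them 1 of a member gene, as were 6 with a matching symbol beside another. Symbols come from the platform annotation. Log2 signals, with no pseudocount, renormalization or filter, were compared with limma 3.58.1 in R 4.3.3 (eBayes with an intensity trend, 6 arrays, no covariates), two-sided, with Benjamini-Hochberg adjustment over 23999 probe sets and a threshold of 0.05. The fit was tested on simulated data, with changes placed in probe sets above the median signal. It found 67 of 100 changes of 1.5-fold and 96 of 100 of 2-fold, with 7 false calls. The simulated noise was normal, with the median spread at each signal level for every probe set of that level. Measured probe sets of one level differ in their spread, so the shares found need not hold for them. Smaller changes were not simulated. P-values measure the spread between 3 embryos per day. No list was tested as a set.

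The members and lists were chosen with earlier results of these data known. Named by rule were members past the test on any probe set or under an unadjusted p of 0.05, the largest difference of each role, paralogue pairs, members whose probe sets disagree, and up to 2 genes of the smallest p in each neighbouring list. All others were chosen after their values were seen. The alternatives tried were other scalings (quantiles, medians), a pseudocount of 32, a filter to the brightest 66%, other variance models, array weights, averaged probe sets, linear folds and leaving out each array.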

Additional observations from a re-analysis of the deposited data

How the results depend on the processing

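The count of 0 members past the test rested on a narrow margin for EIF4A3 and EIF4G3. In limma 1 member had risen and 1 had fallen with array weights, and 1 and 1 among the brightest 66% of probe sets, which leave out NARS2, these being EIF4G3 and EIF4A3. Over all 23999 probe sets 520 rose and 649 fell with array weights, against 224 and 243 in the main fit. Of the 15839 brightest probe sets 353 rose and 410 fell. EIF4A3 alone made 1 member that fell after quantile normalization, with a robust variance and with averaged probe sets. With 1 array left out, 0 to 1 members had risen (EIF4G3 without array 6) and 0 to 1 had fallen (EIF4A3 without array 5), and with no intensity trend, median centring or 32 added to each signal none had. Of the 92 probe sets 0 rose and 1 fell, with 1 and 5 under array weights, 1 and 2 among the brightest 66%, 0 and 2 after quantile normalization or with a robust variance, 0 and 0 after median centring or with no intensity trend, and 0 to 1 each with 1 array left out. The median log2 difference of the members was -0.02 to 0.05 with 1 array left out and 0.135 after median centring, and it was below 0 after quantile normalization (-0.03) and with averaged probe sets (-0.01). The difference of EEF1AKMT1 turned to 0.0692 after median centring, and that of EIF2AK2 ran from -0.003 (without array 3) to 0.2405 with 1 array left out. The other members named for their p or their size kept their direction in each setting run. No member met the 3-fold rule with folds from linear means. No paired analysis was possible because the labels give the arrays no litter, batch or shared number. Signals of the dim mitochondrial synthetases limit what can be said of them, and 3 arrays per day limit every value.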
